A study of Mus musculus with 6 samples.

Results

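The SLC35F subfamily is a branch of the solute carrier family SLC35, whose best known members carry nucleotide sugars into the Golgi apparatus and endoplasmic reticulum. All 6 mouse genes, Slc35f1 to Slc35f6, were taken by symbol from the 24495 symbols of the gene count table. The set was chosen by the EPZ5676 to ethanol difference of Slc35f2, whose transcript was lower after DOT1L inhibition in an earlier reading of these counts, so that difference is described here and not tested. The other 5 genes entered by name as its relatives. Of the 6, 4 had enough counts to enter the fit of 14855 genes, and Slc35f1 and Slc35f4 did not.

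The cells were cultured spermatogonial stem cells, the stem cells of the male germline, from testes of DBA2 mice at postnatal days 5 to 8. They received either 2 uM EPZ5676, also called pinometostat, which inhibits DOT1L, the enzyme that methylates histone H3 at lysine 79, or 0.2% ethanol as control, for 2 weeks. RNA was sequenced from 3 libraries per group, numbered 1 to 3 in each, with the total RNA extracted in TRIzol and the libraries made with a stranded mRNA kit. The labels give no genetic modification in either group, and no statement of how many animals or cultures stand behind a number, so the errors below measure the spread between these libraries.

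SLC35F2 is a membrane protein known for carrying the cytotoxic compound YM155 into cells, and it has also been described as a transporter of queuine and queuosine. Queuine is a micronutrient that animals take up from the diet and gut bacteria and build into the anticodon of certain tRNAs as queuosine. SLC35F1 is the closest relative of SLC35F2, and SLC35F3 has been linked to thiamine transport. SLC35F6 lies in the membranes of lysosomes and mitochondria, while SLC35F4 and SLC35F5 are named by their place in the family.

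The DNA just before the start of Slc35f2 is shown beside that of Slc35f5, the next most abundant member, because they differ in CpG content, a property that the choice of genes did not use. Both are RefSeq promoter sequences on GRCm38.p6, plus strand, 5′ to 3′, ended at the base before the earliest annotated start, with CpG dinucleotides in capitals. The Slc35f2 stretch is chr9:53771285-53771432 (148 bases, 2 CpG) and the Slc35f5 stretch is chr1:125560345-125560527 (183 bases, 18 CpG).
Slc35f2: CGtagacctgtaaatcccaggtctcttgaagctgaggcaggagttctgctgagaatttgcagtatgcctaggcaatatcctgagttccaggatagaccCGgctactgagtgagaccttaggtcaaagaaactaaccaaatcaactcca
Slc35f5: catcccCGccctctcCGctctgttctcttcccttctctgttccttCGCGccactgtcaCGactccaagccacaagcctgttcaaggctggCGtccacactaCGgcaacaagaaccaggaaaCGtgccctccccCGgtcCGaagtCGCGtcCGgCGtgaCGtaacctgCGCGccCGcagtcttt

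All 6 members matched the promoter table, with 8 annotated start sites among them. Each window was the first 250 bases of a promoter entry. For Slc35f2 and the first Slc35f5 site the window runs past the earliest annotated start, which follows after 148 and 183 bases. For the other windows this was not checked. The Slc35f2 window had 3 CpG and an observed-to-expected CpG ratio of 0.214, at percentile 31.8 of 32851 mouse promoters. The other 7 windows of the family had 10 to 38 CpG and ratios of 0.426 to 0.989, at percentiles 54.2 to 93.7. The GC content of the Slc35f2 window was 47.6%, against 60.4% to 78.4% in the others. The motif GGGCGG (GC box, either strand) was present in all 8 windows and in 32.7% of all promoters. The printed Slc35f2 stretch holds no such motif, so that of its window lies past the earliest annotated start. TATAAA was in none of the 8 (12.4% of all promoters), and CCAAT was in the Slc35f1 window only (33.8% of all promoters). The counts were made on the mm9 build and say nothing of which start site was used.

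In the control cells, Slc35f2 was the most abundant transcript of the subfamily. Because longer transcripts collect more reads, levels were compared between genes as CPM (counts scaled to the TMM-normalised size of each library) per kilobase of the longest protein-coding transcript in GENCODE M21. On that scale Slc35f2 stood at 54.8 ± 3.70 (SD, n = 3), Slc35f5 at 16.5 ± 0.913, Slc35f6 at 8.65 ± 1.03 and Slc35f3 at 1.63 ± 0.0928 in ethanol. Each of these 4 was separated from the next by more than the spread between libraries. Slc35f4 and Slc35f1 followed at 0.0730 ± 0.0547 and 0.0170 ± 0.00499, and their order cannot be read because the counts were too few.

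Slc35f2 made up 67.0 ± 1.02% (SD, n = 3) of the summed length-scaled level of the 6 genes in ethanol. In the table of all genes its mean level in CPM, over all 6 libraries, was at percentile 82.2 of those in the fit. Slc35f5 was at percentile 65.0, Slc35f6 at 53.4 and Slc35f3 at 24.6. With the median instead of the longest transcript as length, the Slc35f2 share in ethanol was 56.5%, and the order of the 4 genes did not change.

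Slc35f2 was lower in every EPZ5676 library than in every ethanol library, 1 of 2207 genes (14.9% of all) whose groups did not overlap. It was at 132, 138 and 151 CPM in ethanol replicates 1, 2 and 3, from 2597, 2463 and 3172 counts. With EPZ5676 it was at 75.8, 89.2 and 84.1 CPM in replicates 1, 2 and 3, from 1483, 4917 and 1726 counts. The highest EPZ5676 library thus lay well under the lowest ethanol library, and the gap between the groups exceeded the range within either. The group means were 140 ± 9.46 and 83.1 ± 6.75 CPM (SD, n = 3), a 1.69-fold difference.

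Within same-numbered libraries, Slc35f2 with EPZ5676 was at 57.4%, 64.7% and 55.9% of its ethanol level in pairs 1, 2 and 3. The exact (Clopper-Pearson) 95% intervals of the 3 ratios, which cover counting error only, were 0.538 to 0.612, 0.616 to 0.679 and 0.526 to 0.592. Pair 2 showed the smallest difference. The log2 fold change was -0.75 ± 0.09 (SE) without and -0.75 ± 0.06 with the replicate number as a block.

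**Figure D1:**
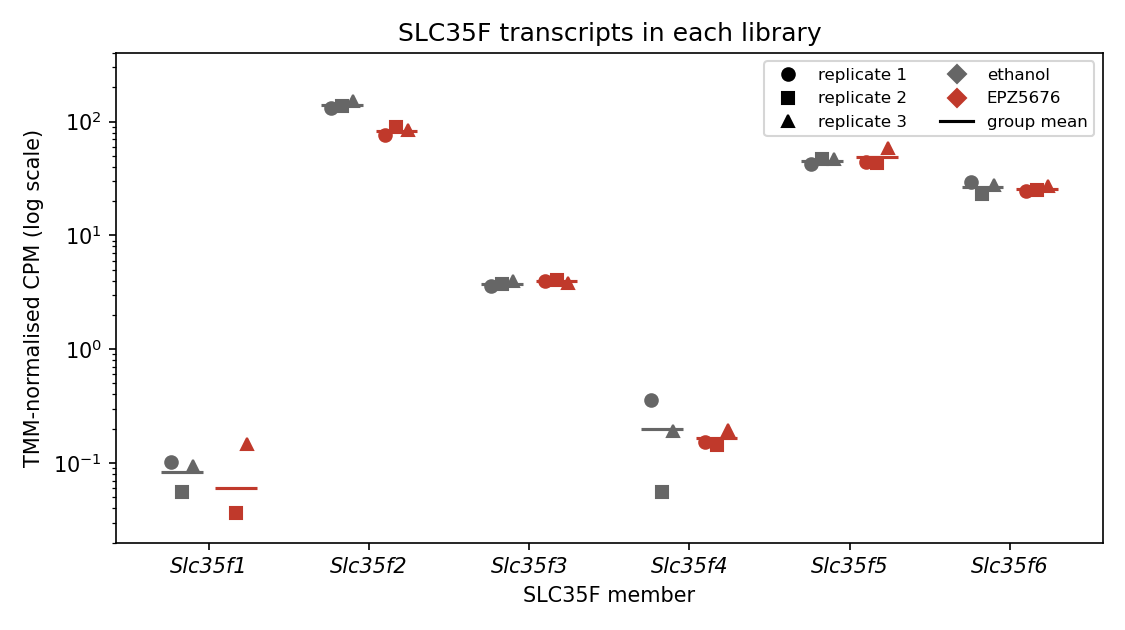
TMM-normalised CPM (log axis) of the 6 SLC35F transcripts in each library, with ethanol in grey, EPZ5676 in red, a symbol per replicate number and a line at each group mean; a library with 0 counts (Slc35f1, EPZ5676 replicate 1) has no point. The groups are apart for Slc35f2 (132 to 151 against 75.8 to 89.2 CPM) and overlap for the other 5 genes. Groups did not overlap for 14.9% of all genes tested.

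Whether Slc35f2 passed the adjusted threshold depended on the model, although its fold change hardly moved. In the edgeR quasi-likelihood fit without the block, 0 of 14855 genes (0% called) had a Benjamini-Hochberg adjusted p under 0.05. That fit gave 1101 genes (7.41%) an unadjusted p under 0.05, limma-voom called 0 genes and DESeq2 called 50, Slc35f2 among them. With the block, 97 genes were called (0.653%), of which 49 were lower (0.330%) and 48 higher (0.323%) with EPZ5676, and 2751 (18.5%) had an unadjusted p under 0.05. Slc35f2 was called in that fit, as 1 of the 4 members tested, and it had the smallest p of all genes in both edgeR fits. These are the values that led to the choice of the gene, so nothing is read from the count, the calls or the rank of its p. In the blocked fit without pair 1 the edgeR count was 0 (1169 genes had an unadjusted p under 0.05), and the log2 fold change of Slc35f2 was then -0.73 ± 0.10.

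Slc35f5, the second most abundant member, was at 42.3, 46.5 and 46.7 CPM in ethanol replicates 1, 2 and 3. With EPZ5676 it was at 44.2, 43.6 and 58.9 CPM. The groups overlapped, and EPZ5676 replicate 3 was the one library that stood above the rest. The log2 fold change was 0.11 ± 0.13 (SE), and -0.04 ± 0.10 without that library. Within pairs, the EPZ5676 to ethanol ratio was 1.04, 0.937 and 1.26, and the counting interval of the third, 1.16 to 1.37, lay above 1.

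Slc35f6 was at 29.4, 23.2 and 27.5 CPM in ethanol replicates 1, 2 and 3 and at 24.4, 25.0 and 27.1 CPM with EPZ5676. All EPZ5676 values fell inside the ethanol range. Its log2 fold change was -0.07 ± 0.12 (SE), ran from -0.16 to 0.04 over the alternatives, and so had no steady sign. Pair 1 alone had a counting interval of the ratio under 1 (0.735 to 0.941).

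Slc35f3 was a low transcript with 67 to 225 counts per library. It was at 3.56, 3.75 and 3.99 CPM in ethanol replicates 1, 2 and 3 and at 3.94, 4.08 and 3.80 CPM with EPZ5676. The groups overlapped, the log2 fold change was 0.07 ± 0.17 (SE), and the counting intervals of all 3 pair ratios included 1. Slc35f3, Slc35f5 and Slc35f6 were called in neither edgeR fit, and none was called in any alternative analysis run. That these genes were not called does not show equal levels.

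Slc35f4 had 7, 1 and 4 counts in ethanol replicates 1, 2 and 3 and 3, 8 and 4 counts with EPZ5676. Slc35f1 had 2, 1 and 2 counts in ethanol and 0, 2 and 3 with EPZ5676, where the library with 0 counts allows up to 0.153 CPM. Both lay at or near the floor of 3 counts in several libraries, and no difference between groups was detectable at this depth. GENCODE M21 places other transcripts on or opposite the Slc35f1, Slc35f4 and Slc35f6 genes and none over Slc35f2, Slc35f3 or Slc35f5.

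**Figure D2:**
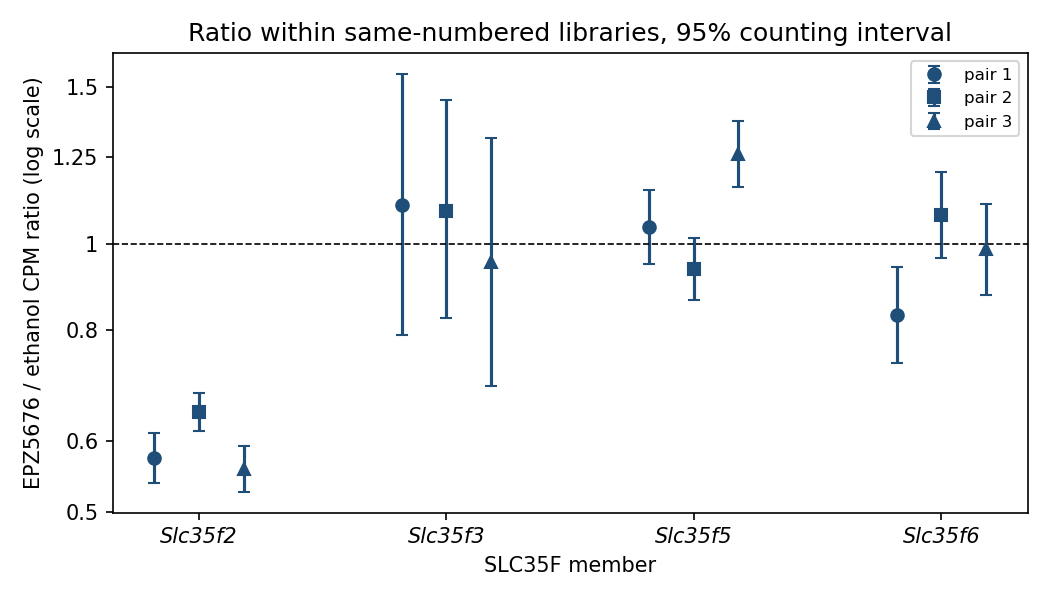
Ratio of EPZ5676 to ethanol CPM (log axis) within same-numbered libraries for the 4 members in the fit, with exact 95% intervals for counting error and a dashed line at 1. The 3 Slc35f2 ratios lie between 0.559 and 0.647, while the ratios of the other genes lie between 0.832 and 1.26.

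The make-up of the subfamily is given as a description, since Slc35f2, the gene chosen for its difference, makes up most of the sum. The summed length-scaled level of the 6 genes was 81.7 ± 4.40 CPM per kilobase in ethanol and 60.4 ± 4.75 with EPZ5676 (SD, n = 3). Without Slc35f2 the sums were 26.9 ± 0.834 and 27.9 ± 3.60, a difference smaller than the spread between the EPZ5676 libraries. Slc35f2 accounted for 65.9%, 67.3% and 67.9% of the sum in ethanol replicates 1, 2 and 3, and for 53.4%, 57.4% and 50.6% with EPZ5676. Its length-scaled level was 3.17 to 3.44 times that of Slc35f5 in ethanol and 1.53 to 2.19 times with EPZ5676. Slc35f2 remained the most abundant member in all 6 libraries.

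**Figure D3:**
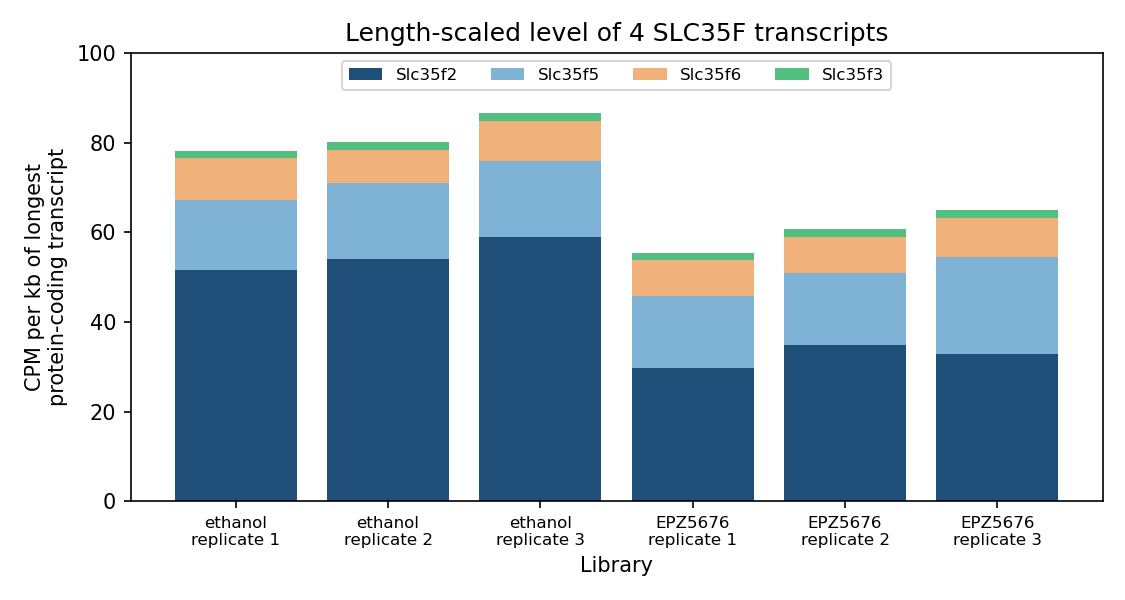
Stacked bars of CPM per kilobase of the longest protein-coding transcript for Slc35f2, Slc35f5, Slc35f6 and Slc35f3 in each library; Slc35f1 and Slc35f4 are too low to draw. The Slc35f2 segment is 51.6 to 58.9 in ethanol and 29.6 to 34.9 with EPZ5676, and the other segments stay close to their ethanol height except Slc35f5 in EPZ5676 replicate 3, at 21.6.

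The rest of the SLC35 family, subfamilies A to E and G, includes the Golgi and endoplasmic reticulum transporters of nucleotide sugars and of the sulphate donor PAPS. All 22 genes present were tested. None was called in either edgeR fit (0% of all genes called without and 0.653% with the block), and limma-voom and DESeq2 called none. At an unadjusted p under 0.05 there was 1 gene without the block (7.41% of all genes) and 2 with it (18.5%). Groups did not overlap for 2 of the 22, against 14.9% of all genes. The median log2 fold change was -0.03, beside -0.01 for all genes tested, and 14 of the 22 were negative, against 51.7% of all genes.

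Slc35b4, the most abundant of these in CPM and a UDP-sugar transporter, was at 108 ± 13.4 CPM in ethanol and 129 ± 16.8 with EPZ5676 (SD, n = 3). Slc35c2, involved in the fucosylation of Notch, was at 77.5 ± 9.44 and 77.6 ± 7.04 CPM, and Slc35g1 at 76.8 ± 12.3 and 72.2 ± 3.62 CPM. The highest log2 fold changes among genes of at least 5 CPM belonged to Slc35b2, a PAPS transporter gene, at 0.39 ± 0.11 (SE), and Slc35a2, the UDP-galactose transporter gene, at 0.26 ± 0.16. The lowest belonged to Tmem241 and Slc35e3, at -0.22 ± 0.24 and -0.18 ± 0.14. Single libraries moved both, Tmem241 to between -0.45 (without ethanol replicate 2) and -0.06 (without ethanol replicate 3), and Slc35e3 to between -0.28 (without ethanol replicate 2) and -0.09 (without EPZ5676 replicate 2). For Slc35b4 the value was 0.25 ± 0.12, and 0.15 to 0.35 without single libraries, lowest without ethanol replicate 2. Slc35b4 passed in the blocked fit without pair 2 and Slc35b2 in that without pair 3, at adjusted p of 0.0198 and 0.0362 in edgeR, and neither passed with all pairs, at 0.0739 and 0.0815, or in any of the other alternatives (adjusted p up to 0.999).

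The enzymes that act on queuine after uptake were also measured. Qtrt1 and Qtrtd1 (Qtrt2) encode the subunits of the enzyme that places queuine in tRNA, 2210016F16Rik (Qng1) a salvage enzyme that frees queuine, and Gtdc1 and B3gntl1 the enzymes that add sugars to queuosine. Trdmt1 encodes a tRNA cytosine methyltransferase whose activity is stimulated by queuosine. None of the 6 was called by edgeR with or without the block, by limma-voom or by DESeq2. Of all genes, edgeR called 0% without and 0.653% with the block. In these fits 0 of the 6 had an unadjusted p under 0.05. In edgeR 7.41% of all genes had such a value without the block and 18.5% with it. With 6 genes, such counts say little about the list. The median log2 fold change was 0.04.

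Qtrt1 was at 26.2 ± 0.534 CPM in ethanol and 29.0 ± 3.40 with EPZ5676 (SD, n = 3), and its log2 fold change, 0.15 ± 0.11 (SE), was 0.09 without EPZ5676 replicate 1 and 0.24 without EPZ5676 replicate 3. Qtrtd1 was at 72.7 ± 3.85 and 75.0 ± 5.09 CPM, and 2210016F16Rik at 31.1 ± 5.95 and 33.5 ± 1.84 CPM. Gtdc1 was at 53.3 ± 2.19 and 48.0 ± 5.86 CPM and B3gntl1 at 37.6 ± 4.37 and 38.5 ± 4.11 CPM. Trdmt1 had a log2 fold change of -0.16 ± 0.17, which was -0.02 without ethanol replicate 2 and -0.32 without EPZ5676 replicate 2. All 6 genes had overlapping groups, in a table where 14.9% of genes did not overlap.

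Thiamine genes were examined because of the link of SLC35F3 to thiamine. Of 10 tested, 0 were called in either edgeR fit, by limma-voom or by DESeq2. Of all genes, edgeR called 0% without and 0.653% with the block. At an unadjusted p under 0.05 there were 2 without the block (7.41% of all genes) and 3 with it (18.5%). Groups did not overlap for 3 of the 10 (Slc19a2, Slc19a3 and Ogdh), against 14.9% of all genes. The median log2 fold change was 0.05. The extremes were the plasma membrane thiamine transporter genes, Slc19a3 at 0.99 ± 0.42 (SE) from 0.315 ± 0.185 to 0.649 ± 0.0440 CPM, and Slc19a2 at -0.14 ± 0.09 from 68.5 ± 5.65 to 62.3 ± 0.761 CPM (SD, n = 3). Slc19a3 rests on 3 to 33 counts per library, and its value was 0.70 without ethanol replicate 2 and 1.57 without ethanol replicate 3. Slc19a2 was at -0.07 without ethanol replicate 2. Bckdha, a subunit of branched-chain ketoacid dehydrogenase, passed only in the blocked fit without pair 3 and is named after its values were seen.

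Most carriers of nucleosides, folate and drugs had negative log2 fold changes, without a call in either edgeR fit. Of all genes, edgeR called 0% without and 0.653% with the block. Of 16 genes, 11 were tested, 10 of them were below 0 in log2 fold change (9 in the blocked fit), against 51.7% of all genes, and the median was -0.30, beside -0.01. Groups did not overlap for 4 of the 11, against 14.9% of all genes, and 2 had an unadjusted p under 0.05 without the block (7.41% of all genes) and 3 with it (18.5%). limma-voom and DESeq2 without the block called 0. Slc28a1, a concentrative nucleoside transporter gene with 5 to 29 counts per library, had the lowest value, -0.44 ± 0.53 (SE). It turned to 0.18 without ethanol replicate 2, was -0.22 without EPZ5676 replicate 3 and -0.82 without ethanol replicate 1, and was -0.06 without both replicate 2 libraries. Slc43a3, a purine nucleobase transporter gene, had the highest, 0.15 ± 0.12, which was 0.04 without ethanol replicate 2 and 0.09 without EPZ5676 replicate 3.

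Slc29a1, which encodes the equilibrative nucleoside transporter ENT1, is named after its values were seen. It was at 114 ± 7.03 CPM in ethanol and 92.2 ± 6.45 with EPZ5676 (SD, n = 3), in groups that did not overlap. Its log2 fold change was -0.30 ± 0.09 (SE). Its adjusted p was 0.0519 in the blocked edgeR fit, 0.0187 in DESeq2 with the block, and 0.00937 and 0.0249 in the blocked edgeR fits without pairs 2 and 3. Of 18 alternatives, the 3 with a value under 0.05 are those named here, with adjusted p from 0.00937 to 0.999 over all of them. Slc22a5, a carnitine transporter gene, was also called without pair 2.

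**Figure D4:**
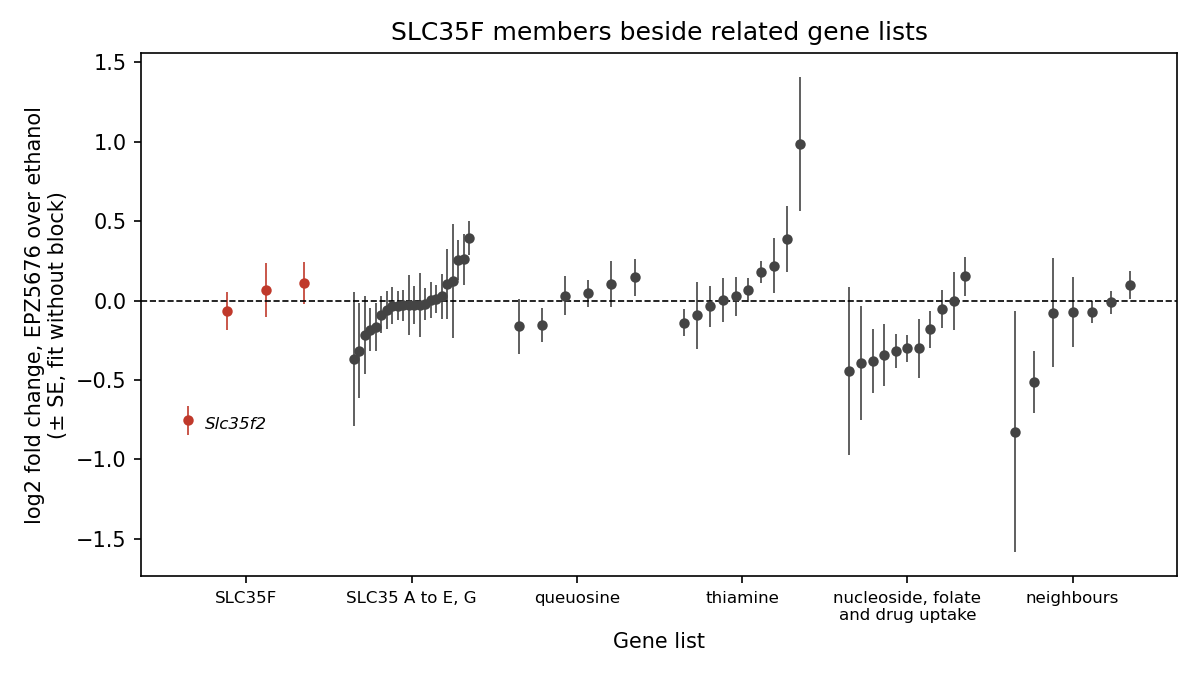
Log2 fold change, EPZ5676 over ethanol, with its SE from the edgeR fit without the block, for each tested gene of the SLC35F subfamily (red) and of 5 related lists (dark grey), sorted within a list. Slc35f2, at -0.75, lies apart from its 3 tested relatives, and the single gene with a lower value is Cyp19a1, a neighbour with under 1 CPM and a wide SE.

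The genes next to Slc35f2 on its chromosome were taken from the RefSeq order of GRCm38.p6, 5 on each side. Of the 10, 7 were tested and 0 were called in either edgeR fit, by limma-voom or by DESeq2. Of all genes, edgeR called 0% without and 0.653% with the block. In each edgeR fit 1 of the 7 had an unadjusted p under 0.05, against 7.41% of all genes without and 18.5% with the block. The median log2 fold change was -0.07, and 6 of the 7 were negative, against 51.7% of all genes. Groups did not overlap for 2 of the 7, Rab39 and Cul5, against 14.9% of all genes. On the side before Slc35f2, Rab39, a small GTPase gene and the nearest neighbour, was at 4.09 ± 0.208 CPM in ethanol and 2.83 ± 0.461 with EPZ5676 (SD, n = 3). Its log2 fold change was -0.51 ± 0.20 (SE). Cul5, a ubiquitin ligase scaffold gene, was at 159 ± 7.51 and 151 ± 2.84 CPM, and Acat1, a mitochondrial thiolase gene, at 92.7 ± 25.2 and 88.5 ± 19.0 CPM. On the other side, Tnfaip8l3 and Cyp19a1 (aromatase) were each under 1 CPM, with 8 to 27 and 3 to 18 counts per library and log2 fold changes of -0.08 ± 0.34 and -0.83 ± 0.76. Single libraries set these values: Tnfaip8l3 turned to 0.22 without ethanol replicate 1 and 0.06 without EPZ5676 replicate 2, and Cyp19a1 ran from -1.66 (without EPZ5676 replicate 3) to -0.14 (without EPZ5676 replicate 2) and was -0.21 without ethanol replicate 3. Acat1, at -0.07 ± 0.22, turned positive (0.02 to 0.10) without ethanol replicate 1 or 3 or EPZ5676 replicate 2.

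The genes whose levels followed Slc35f2 most closely were sought among 10685 genes averaging 5 CPM or more, by Pearson's r of log2 CPM over the 6 libraries. The highest were Polr3g, an RNA polymerase III subunit gene (0.994), Ddx47, an RNA helicase gene (0.992), Pik3r1, a PI3-kinase regulatory subunit gene (0.986), Ppfibp1, a liprin gene (0.986), and Igtp, an interferon-induced GTPase gene (0.985). The libraries fall into 2 treatment groups, so r mainly describes a shared difference between the groups. Of these 5, Igtp had the lowest log2 fold change, -0.64, at 14.1 ± 0.633 in ethanol against 9.05 ± 0.818 CPM (SD, n = 3). Polr3g was at 89.3 ± 1.72 and 77.4 ± 1.95 CPM. With group means removed, the closest were Ankrd26 (0.997), Synrg (0.994), Lrrc20 (0.987), Dtd2 (0.986) and Efnb3 (0.986), and their log2 fold changes ran from -0.11 to 0.18. Of the 10685 genes, 177 had r above 0.9 over the 6 libraries and 62 with group means removed. The named genes are the highest of many over few libraries. Whether their r exceeds that of unrelated genes was not tested. On the 6-library measure r was -0.26 for Slc35f5 and 0.27 for Slc35f6.

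Library totals ran from 17784332 to 54645903 counts, with EPZ5676 replicate 2 the deepest. The summed level of 15 spermatogonial markers was 5152 to 5758 CPM in ethanol and 5453 to 5640 with EPZ5676, with a median log2 fold change of 0.04 and 6 of 15 negative. Single markers ranged widely: the germ cell gene Dazl was at 1671 CPM or more in every library, and Nanos2, a gene of undifferentiated spermatogonia, at 3.19 to 14.6. Gfra1, the GDNF co-receptor gene of the stem cells, was at 66.5 to 73.0 CPM in ethanol and 44.0 to 59.3 with EPZ5676. These groups did not overlap, against 14.9% of all genes. Of the 15 markers Gfra1 came nearest to the threshold in the blocked edgeR fit, at an adjusted p of 0.0611. Its log2 fold change there was -0.42 ± 0.08 (SE). Ret, its partner receptor gene, was at 111 to 198 and 121 to 140 CPM, with an adjusted p of 0.265 in that fit. The part of Gfra1 and Ret in the Slc35f2 result was not tested. Of 26 fibroblast markers 25 were tested, and their summed level was 3050 and 2222 CPM in ethanol and EPZ5676 replicate 2 and 1618 to 1814 in the other 4 libraries. Of the 25, 20 had a negative log2 fold change, and the median was -0.23 beside -0.01 for all genes. Col1a2, Col5a1 and Col3a1 came nearest to the threshold in the blocked fit, at adjusted p of 0.0504, 0.0740 and 0.0826 and log2 fold changes of -0.34, -0.29 and -0.36, and were named after their values were seen. Without both replicate 2 libraries the log2 fold change of Slc35f2 was -0.82 ± 0.09 (SE), and it was called, as 1 of 10 genes. The part of the fibroblast markers in the Slc35f2 result was not tested, by that fit or any other. Of 7 Leydig markers 1, Star, was tested, and their summed level was 8.21 to 10.6 CPM in ethanol and 5.70 to 7.07 with EPZ5676. Star made up most of that sum, at 6.93 to 9.63 CPM in ethanol and 5.03 to 6.24 with EPZ5676. Of the other Leydig genes, Lhcgr had no count and Insl3 and Hsd3b1 had counts in 1 library each. Cyp11a1 (0.236 to 0.759 CPM), Cyp17a1 (0.0511 to 0.392) and Nr5a1 (0.153 to 0.285) had counts in every library. The part of the summed Leydig difference in the Slc35f2 result was not tested. Summed Sertoli (41.9 to 53.7 against 37.6 to 46.5 CPM), macrophage (16.1 to 19.5 against 14.2 to 19.2) and endothelial markers (18.4 to 22.1 against 17.9 to 20.7) overlapped between ethanol and EPZ5676. In bulk RNA, fewer cells of a type and less RNA per cell cannot be told apart. Dot1l, the gene of the inhibited enzyme, was at 202 ± 3.92 CPM in ethanol and 243 ± 40.4 with EPZ5676 and was called in neither edgeR fit.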

How the data were processed

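The authors deposited whole-number counts per gene symbol for 6 libraries. The submitters' processing notes name the mm9 build and the tools Bowtie, STAR, featureCounts and edgeR; which tool did what, their versions, the annotation, strand use and the handling of multi-mapping reads are not stated in the sources at hand. A second deposited table, of repeat families, holds no member and was not used.

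Counts were analysed in R 4.3.3. filterByExpr kept 14855 of 24495 symbols, TMM set the library scaling, and the 2 treatments were compared with edgeR 4.0.16 (glmQLFit and glmQLFTest, 2-sided). The p-values were adjusted over all tested genes by Benjamini-Hochberg, and genes under 0.05 were called. Alternatives used limma 3.58.1 and DESeq2 1.42.0, other scalings and filters, and fewer libraries. Same-numbered libraries correlated at 0.610, 0.668 and 0.418 in their deviations from the group means over 10686 genes, each above the bound of 0.1 set for pairs, so a fit blocked on that number stands beside the results it changes. No label says what the numbers stand for, and 2 of the other 6 combinations also exceeded the bound (0.385 and 0.129). Replicate 2 libraries correlated negatively with those of other numbers (-0.610 to -0.332). Deviations within a group are not independent, so the bound cannot show that replicates 1 and 3 are matched by number. No 2 libraries agreed within sampling noise (chi-square per degree of freedom at least 3.64).

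The members and lists were chosen with earlier results of these data known. Named genes were the members, Dot1l, all queuosine genes, the 3 most abundant and 2 highest and 2 lowest genes of the SLC35 list (none being called), the extremes of 2 lists, the nearest tested neighbours (up to 3 on each side), and the 5 closest genes by each likeness measure. Log2 CPM for likeness used a prior count of 2. RefSeq tables on GRCm38.p6 matched 24395 symbols and gave neighbour order and promoter sequences; GENCODE M21 gave transcript lengths.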

Additional observations from a re-analysis of the deposited data

How the results depend on the processing

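Slc35f2 had a negative log2 fold change under all 18 alternatives, from -0.82 to -0.69, and was called in 6 of them. All of these reuse libraries whose difference led to the choice of Slc35f2. Its sign and calls are therefore a description of the settings and not support for the difference. Leaving out single libraries without the block gave -0.81 to -0.69 and, in edgeR, 0 calls over all genes each time, with 609 to 1662 genes at an unadjusted p under 0.05. With the replicate block 97 genes were called, with DESeq2 50, with DESeq2 and the block 293, and without both replicate 2 libraries 10; Slc35f2 was among them each time. Leaving out 1 pair in the blocked fit gave 0 to 795 calls: 0 without pair 1, 795 without pair 2 and 761 without pair 3, each on 1 residual degree of freedom. Slc35f2 was lost without pair 1 and called without pair 2 or 3. The cause was not tested. Over those 3 fits, calls ran from 0 to 1 for the SLC35 and thiamine lists and from 0 to 2 for the uptake carriers, which also had 1 with DESeq2 and the block. With all 3 pairs, the replicate block in edgeR changed the call of Slc35f2 and of no other named gene. Without pair 3 it called Dot1l higher (0.39). Of 661 values of the other named genes under the alternatives, 636 stayed within 1 SD of the pair differences and 25 moved further. That SD is each gene's own, so a noisy gene can shift far and still count as within it. Slc28a1, at 0.18 without ethanol replicate 2 against -0.44, was such a value. The Slc35f2 share of the family in ethanol was 64.8% in CPM, 67.0% per kilobase and 56.5% with median transcript lengths, the last chosen after seeing the data. Depth limits Slc35f1 and Slc35f4, at 8 counts or fewer per library.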
